A study of Mus musculus with 26 samples.

Results

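Transcripts of 9 genes that write, keep or remove DNA methylation were followed across 13 sorted mouse cell groups of 4 lineages in which the transcriptional repressor BLIMP1 is switched on. The 9 genes are Dnmt1, Uhrf1, Dnmt3a, Dnmt3b, Dnmt3l, Tet1, Tet2, Tet3 and Tdg. They were taken by name from the deposited expression table, and all 9 stood on lines with a value in each of the 26 libraries (9 of 25146 complete gene lines). Each group had 2 libraries of 3' RNA-seq, in which reads come from the 3' end of a transcript, and values are in RPM, reads scaled to the size of each library.

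The first lineage was primordial germ cell-like cells on day 2 of induction (d2 PGCLC), sorted for the mVenus reporter. They were derived, through epiblast-like cells, from transfected embryonic stem cells of mixed C57BL/6 and 129 background that carried Blimp1-mVenus, stella-ECFP and Rosa26-rtTA, and were induced with BMP4, BMP8A, SCF, EGF and LIF. All other groups were C57BL/6 and homozygous for EGFP inserted at the BLIMP1 N terminus, controls included, so none of these groups had an untagged BLIMP1. Intestinal epithelium was sorted as GFP+ EPCAM+ cells of E16.5 embryos and as EPCAM+ reporter-negative cells at postnatal days 3 (P3) and 14 (P14). Retinal photoreceptor precursors were sorted as GFP+ cells at P0, as GFP+CD73- cells at P4 and as CD73+ cells at P4, P6 and P10. Spleens of mice that were 8 to 10 weeks old gave the B220+ B cells. Blasts (GFP-, CD138-), pre-plasmablasts (prePB; GFP+, CD138-) and plasmablasts (PB; GFP+, CD138+) were sorted from such B cells after 3 days with LPS and IL-4.

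DNA methylation in mammals is carried mainly by cytosines in CpG pairs. DNMT3A and DNMT3B, helped in germ cells and early embryos by the catalytically inactive DNMT3L, place new methyl groups. After replication UHRF1 binds the half-methylated DNA and recruits DNMT1, which copies the pattern to the new strand. TET1, TET2 and TET3 oxidise the methyl group, and TDG cuts out the oxidised bases for repair. In mice, primordial germ cells lose most of their methylation after they are specified, when Uhrf1 and Dnmt3b are known to be turned down, and postnatal neurons are known for high DNMT3A and TET activity.

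The depth of the libraries was 1.72 to 6.04 M reads, so 1 read was worth 0.166 to 0.583 RPM and a value near 1 RPM rests on a few reads. Replicates correlated at r = 0.977 to 0.986 across genes on the log2 scale. The summed level of each lineage's marker list was highest in its own libraries. For example, 7 photoreceptor precursor markers summed to at least 2958 RPM in each retinal library and to at most 247 RPM in any other, and 6 intestinal epithelial markers summed to at least 3236 RPM in the intestine and to at most 634 RPM elsewhere, in d2 PGCLC. Two-sided limma tests were run on log2(RPM + 1), a scale on which the change of a gene at a few RPM is understated. A gene is said to have risen or fallen only where its p-value, adjusted over all genes of the fit, was under 0.05 and its log2 fold change was at least 1 in size. Whether the 2 replicates of a group are separate animals or cultures is not stated by any label, so p-values measure the spread between these samples alone, which may be technical. In sorted bulk RNA, fewer cells of a type and less RNA per cell cannot be told apart.

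Each of the genes except Dnmt3l reached 5 RPM in at least 12 of the 26 libraries. Dnmt1, Dnmt3a and Tdg did so in all 26. The group means of Tet1 spanned the widest range, with 42.4 ± 12.1 RPM in d2 PGCLC and 0.125 ± 0.154 RPM in PB (SD, n = 2 each), where neither library held more than 1 read. Uhrf1 averaged 111 ± 4.77 RPM in blasts and 0.894 ± 0.163 RPM in P10 CD73+ precursors (SD, n = 2 each), where each library held 3 reads. The range of group means was 70.8-fold for Tet3 and 31.1-fold for Dnmt3a, whereas it was 7.07-fold for Tdg and 4.56-fold for Dnmt1. The highest mean lay in the blasts for Dnmt1 and Uhrf1, in d2 PGCLC for Dnmt3b, Dnmt3l and Tet1, in P10 CD73+ precursors for Dnmt3a, Tet2 and Tet3, and in P0 GFP+ precursors for Tdg. The lowest mean lay in PB for Dnmt3a, Dnmt3b, Tet1 and Tet3, in P10 CD73+ precursors for Uhrf1, in E16.5 intestine for Dnmt1, in P14 intestine for Tet2 and in B cells for Tdg. These ranks use RPM as deposited, and the complete gene lines summed to 688942 and 650799 RPM in PB, the lowest sums of any library. Dnmt3b in PB (6.25 ± 5.19 RPM) overlapped with P4 CD73+ precursors (6.43 ± 1.76 RPM).

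**Figure D1:**
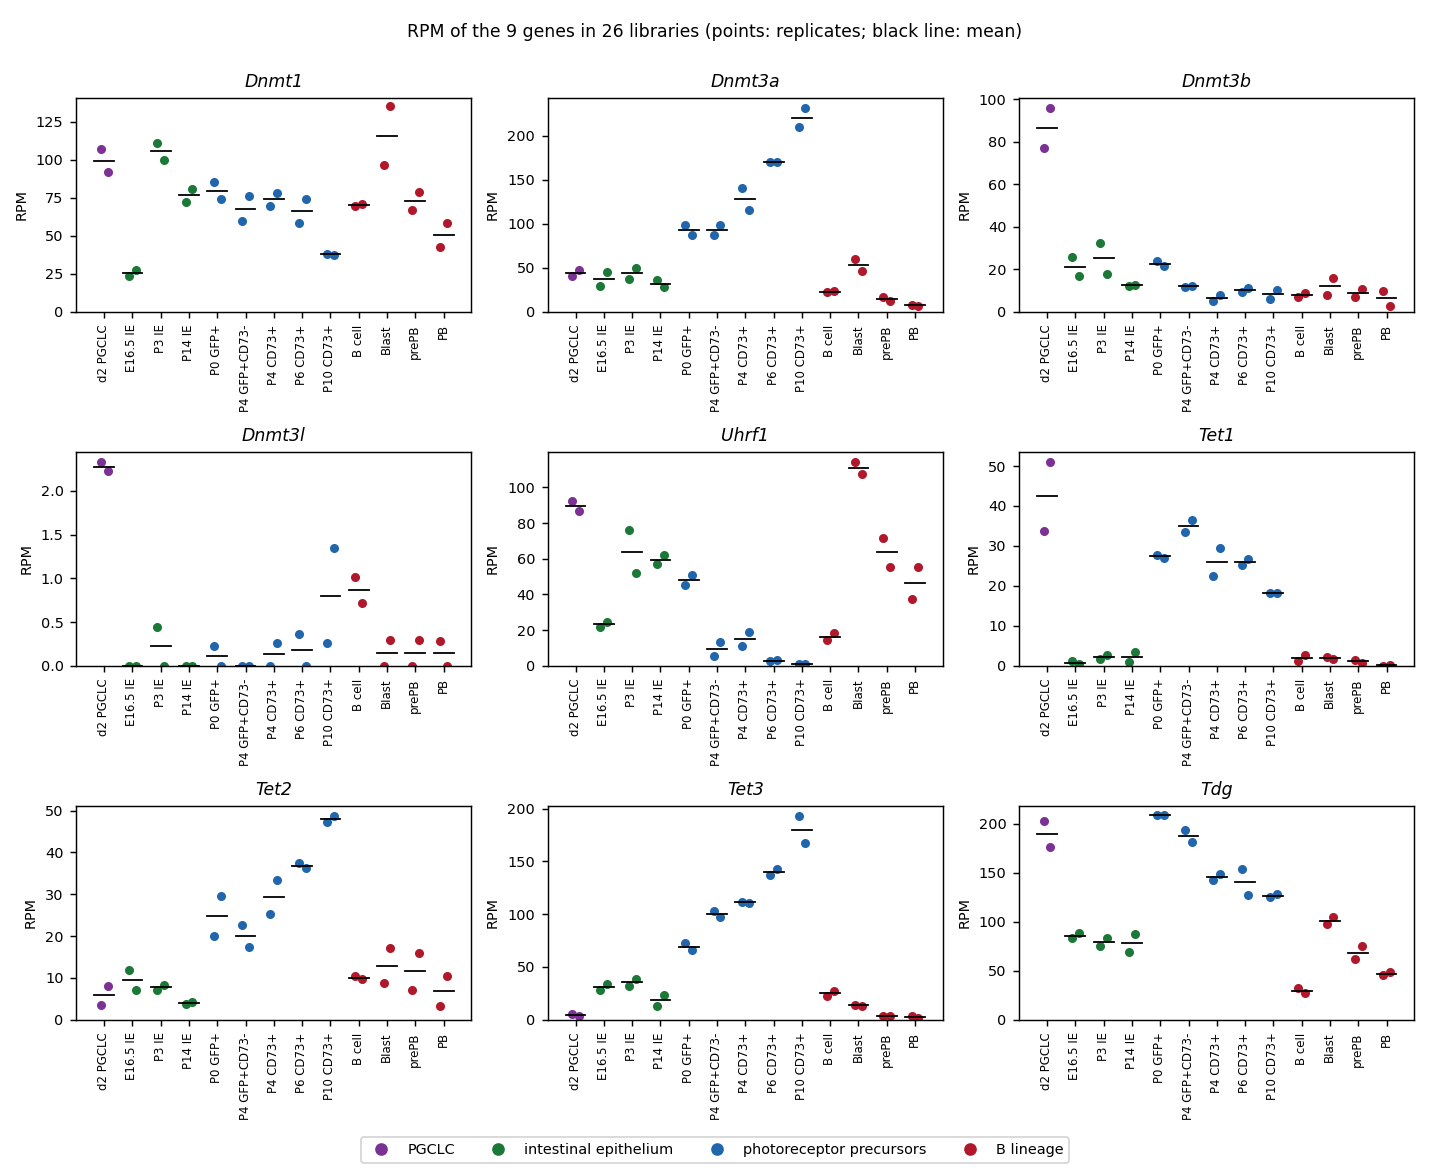
Level of each of the 9 genes in RPM (vertical axes, linear, one panel per gene) in the 13 groups, with a point per library and a bar at the mean of the 2 libraries. Uhrf1 is near 1 RPM in both P10 CD73+ libraries and above 100 RPM in both blast libraries, while Dnmt3a, Tet2 and Tet3 are highest in the P10 CD73+ libraries.

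Ordered by group mean, the libraries of neighbouring groups did not overlap at 7 of the 12 steps for Uhrf1, Dnmt3a, Tet3 and Tdg. This held for 5 steps for Tet1, 4 for Dnmt1, 3 for Dnmt3b and Tet2, and 1 for Dnmt3l. For Dnmt1, the blasts, P3 intestine and d2 PGCLC could not be ordered, since their ranges overlapped in the order of means. Likewise the P0 GFP+ precursors, P14 intestine, P4 CD73+ precursors, prePB, B cells, P4 GFP+CD73- precursors and P6 CD73+ precursors formed a run of overlapping neighbours, with PB, P10 CD73+ precursors and E16.5 intestine below them in that order. The step from P6 CD73+ precursors to PB was barely apart, with 58.19 RPM in P6 replicate 1 and 58.11 RPM in PB replicate 2. With all libraries kept, the change of Dnmt1 in PB against B cells ran from log2 -0.50 to 0.28 over the alternative runs. For Tet2, the 5 retinal groups lay above all others, and the 8 remaining groups formed 1 run of overlapping neighbours. That margin was small, with 17.4 RPM in P4 GFP+CD73- replicate 2 and 17.1 RPM in Blast replicate 2.

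Dnmt1 and Uhrf1 encode the 2 proteins that maintain methylation through replication. The RefSeq promoter table (GRCm38.p6) holds windows from 250 bases before to 50 bases after each annotated start, with 3 windows for Dnmt1 and 2 for Uhrf1. E2F factors are the textbook activators of replication genes at the entry into S phase, and their part in the levels here was not tested. Stretches are printed only from windows that held an E2F motif match before the start, so the match in each follows from that choice. The search used the E2F motifs TTTCCCGC, TTTGGCGC and TTTCGCGC on both strands, and their matches overlapped no match of the other motifs searched. Capitals mark a TTTCGCGC match, which on the strand printed for Dnmt1 reads as its reverse complement. The Uhrf1 stretch is chr17:56304063-56304312 on the plus strand, the 250 bases before the start of its second window. The Dnmt1 stretch is chr9:20952824-20952853 on the minus strand, cut to the match and 11 bases on each side because it lies in an exon of another annotated Dnmt1 transcript.
Uhrf1: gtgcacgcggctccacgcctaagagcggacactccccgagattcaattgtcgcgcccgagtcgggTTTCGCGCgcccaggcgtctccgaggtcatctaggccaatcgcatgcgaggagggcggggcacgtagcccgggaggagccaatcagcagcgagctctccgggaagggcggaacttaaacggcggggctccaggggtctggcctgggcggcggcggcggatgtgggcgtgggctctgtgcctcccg
Dnmt1: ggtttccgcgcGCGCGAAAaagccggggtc

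The TTTCGCGC match lay at -185 to -178 from the start in the Uhrf1 window and at -219 to -212 in the Dnmt1 window, which also held TTTGGCGC at 34 to 41 after the start. At least 1 of the 3 motifs was in 606 of all 32851 windows (1.84%), and TTTCGCGC alone was in 0.323%. None of the windows of the other 7 genes held one. The BLIMP1-type motif AGNGAAAG was in the other Uhrf1 window, at -129 to -122, and in 8.63% of all windows, but in no window of the other 8 genes. GGGCGG, the motif of SP and KLF factors, was in windows of 8 of the 9 genes and in 35.7% of all windows. These are matches of letters, not bound sites, and 3' reads do not show which start was used. The windows of the methylation genes mostly held more CpG than the median of 7 over all windows. The Tet2 window held 57, more than in 99.8% of all windows. The first 2 Dnmt3a windows held 46 and 47, and 1 window each of Dnmt1 and Uhrf1 held 33. Dnmt3b had 30 and Tdg 26. The other windows held 12 and 2 CpG for Dnmt1, 18 for Dnmt3a, 12 for Uhrf1, 17 for Tet1 and 22 for Tet3. The 3 Dnmt3l windows held 3 to 6.

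Uhrf1 (Entrez ID 18140; chromosome 17, 56303337 to 56323486, plus strand, GRCm38.p6) nearly disappeared from maturing photoreceptor precursors. Its levels were 45.0 and 50.8 RPM in P0 GFP+, 5.72 and 13.1 RPM in P4 GFP+CD73-, 11.3 and 19.0 RPM in P4 CD73+, 2.56 and 3.10 RPM in P6 CD73+ and 0.779 and 1.01 RPM in P10 CD73+ libraries. The 2 P4 groups overlapped, and all other neighbours of this series were apart. Uhrf1 fell in P4 GFP+CD73- against P0 GFP+ precursors (log2 -2.33 ± 0.40, adjusted p = 6.4e-04), in P6 against P4 CD73+ precursors (log2 -2.04 ± 0.40, adjusted p = 0.008) and in P10 against P4 CD73+ precursors (log2 -3.05 ± 0.40, adjusted p = 2.8e-05). In P10 CD73+ against P0 GFP+ precursors its change was the largest of the tested members in size (log2 -4.69 ± 0.40, adjusted p = 5.9e-08). The fall between P4 and P6 lost its call without P4 CD73+ replicate 2 (log2 -1.69), without P6 replicate 1 (log2 -1.94) or replicate 2 (log2 -2.14), and with no filter on low values. With a pseudocount of 5 RPM it was log2 -1.34, and that between P4 and P10 was log2 -1.75.

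Dnmt1 (Entrez ID 13433; chromosome 9, 20907206 to 20959888, minus strand) stayed well above 0 in the same cells. It had 85.1 and 74.1 RPM in P0 GFP+, 59.3 and 75.7 RPM in P4 GFP+CD73-, 69.8 and 77.8 RPM in P4 CD73+, 58.2 and 73.9 RPM in P6 CD73+ and 38.2 and 37.0 RPM in P10 CD73+ libraries. Its neighbours overlapped up to P6, and both P10 libraries lay below all others of the retina. Dnmt1 fell in P10 CD73+ against P0 GFP+ precursors (log2 -1.06 ± 0.18, adjusted p = 1.3e-04). That call was lost without P0 replicate 1 (log2 -0.96), under median-of-ratios scaling (log2 -0.97) and with a pseudocount of 5 RPM (log2 -0.99). Against P4 CD73+ precursors its change at P10 was just under that size (log2 -0.95 ± 0.18, adjusted p = 9.3e-04), and it was called without P4 CD73+ replicate 1 (log2 -1.03). The log2 ratio of Uhrf1 to Dnmt1, with 1 RPM added to each, was -0.90 and -0.54 in the P0 libraries, -3.17 and -2.44 in P4 GFP+CD73-, -2.52 and -1.97 in P4 CD73+, -4.05 and -4.19 in P6 CD73+ and -4.46 and -4.24 in P10 CD73+ libraries.

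In the intestine both maintenance genes went the other way. Dnmt1 had 23.5 and 27.2 RPM at E16.5, 111 and 100 RPM at P3 and 72.3 and 80.8 RPM at P14. Uhrf1 had 21.5 and 24.7 RPM at E16.5, 76.2 and 51.8 RPM at P3 and 57.1 and 61.9 RPM at P14. Both postnatal groups were above E16.5 in every library, and P3 and P14 overlapped for Uhrf1 but not for Dnmt1. Against E16.5, Dnmt1 rose at P3 (log2 2.02 ± 0.19, adjusted p = 1.4e-08) and at P14 (log2 1.56 ± 0.19, adjusted p = 5.8e-07), and so did Uhrf1 at P3 (log2 1.41 ± 0.22, adjusted p = 2.1e-05) and at P14 (log2 1.33 ± 0.22, adjusted p = 3.7e-05). At P14 against P3 neither passed the test (Dnmt1 log2 -0.46 ± 0.19, adjusted p = 0.16; Uhrf1 log2 -0.08 ± 0.22, adjusted p = 0.89). The E16.5 cells were sorted as reporter-positive and the postnatal cells as reporter-negative, so age and reporter cannot be told apart in this comparison. In the retina the gate also differed between the P0 GFP+ cells and the later CD73+ cells.

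Genes of DNA replication and of mitosis were measured in the same libraries. The summed level of 23 S phase genes was 932 and 965 RPM at E16.5, 2411 and 2559.6 RPM at P3 and 2322 and 2257 RPM at P14 in the intestine. In the retina it was 1912 and 1984 RPM in P0 GFP+, 981 and 1068 RPM in P4 GFP+CD73-, 749 and 1026 RPM in P4 CD73+, 561 and 564 RPM in P6 CD73+ and 346 and 295 RPM in P10 CD73+ libraries. Of the 22 S phase genes tested in each tissue, 18 rose in P3 against E16.5 intestine (median log2 1.51, against 0.11 over all genes tested), and all 22 fell in P10 CD73+ against P0 GFP+ precursors (median log2 -2.94, against -0.10). The shares of all genes were 12.6% called higher in the intestinal comparison and 20.1% called lower in the retinal one. In P4 GFP+CD73- against P0 GFP+ precursors 15 of the 22 fell, while the change of Dnmt1 did not pass the test (log2 -0.24 ± 0.18, adjusted p = 0.39). The share of all genes called lower there was 5.77%. The 14 mitosis genes summed to 124 and 115 RPM in P10 CD73+ libraries and to 3386 and 2769.6 RPM in P0 GFP+ libraries. Between these, their sum was 343 and 729 RPM in P4 GFP+CD73-, 419 and 848 RPM in P4 CD73+ and 205 and 201 RPM in P6 CD73+ libraries. The 8 retinal progenitor genes summed to 672 and 488 RPM in P10 CD73+, 1079.7 and 1112 RPM in P6 CD73+ and 1421 and 1573 RPM in P0 GFP+ libraries. At P4 their sum was 616 and 800 RPM in GFP+CD73- and 706 and 1028 RPM in CD73+ libraries, below P6. None of the 8 was at 0 in any retinal library. The part of cycling or progenitor cells in the retinal changes of Dnmt1 and Uhrf1 was not tested.

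**Figure D2:**
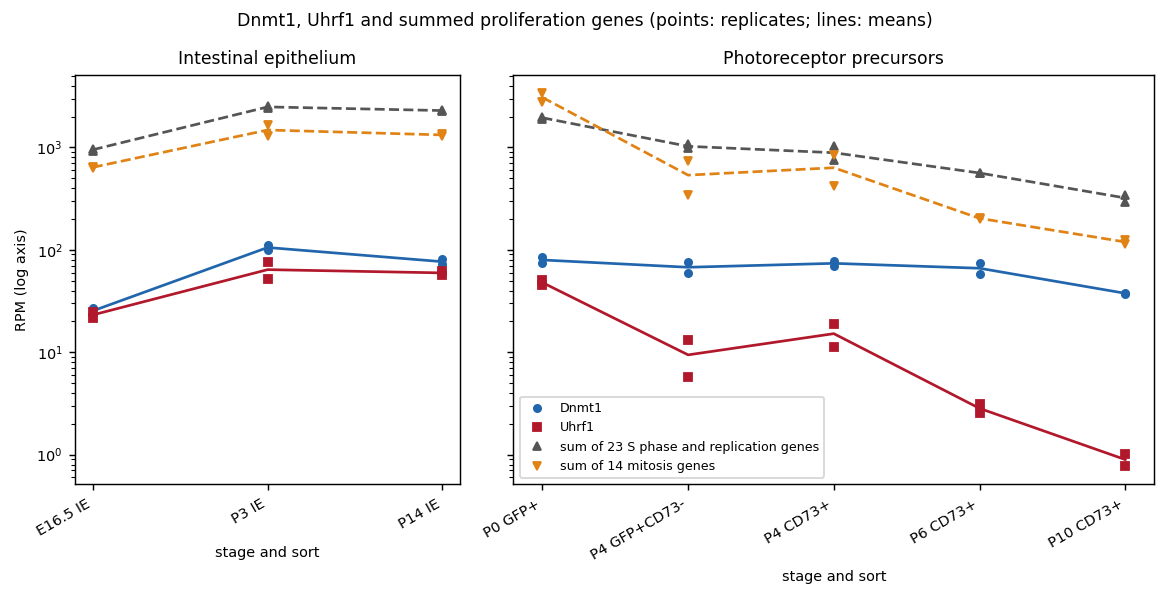
Levels in RPM (vertical axis, log scale) of Dnmt1, Uhrf1, the sum of 23 S phase genes and the sum of 14 mitosis genes by age and sorted group in the intestine (left) and the retina (right), with a point per library and lines through group means. In the intestine all 4 are lowest at E16.5. In the retina all 4 are lowest in P10 CD73+ libraries, where Uhrf1 and the mitosis sum lie far below their P0 levels and Dnmt1 the least.

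In the B lineage the blasts had the highest Uhrf1 of all 13 groups, 114 and 107 RPM, against 14.6 and 18.1 RPM in B cells. PrePB had 71.7 and 55.5 RPM and PB 37.4 and 55.5 RPM, which lay between these groups without overlap with either. Uhrf1 rose in blasts against B cells (log2 2.70 ± 0.23, adjusted p = 3.9e-07). It was also higher in PB than in B cells (log2 1.44 ± 0.23, adjusted p = 7.7e-05). Dnmt1 had 96.2 and 135 RPM in blasts, 67.2 and 78.5 RPM in prePB, 42.2 and 58.1 RPM in PB and 69.5 and 70.8 RPM in B cells. Its change in blasts against B cells did not reach the size asked for (log2 0.69 ± 0.21, adjusted p = 0.013). The log2 ratio of Uhrf1 to Dnmt1 was 0.25 and -0.33 in blasts and -2.18 and -1.91 in B cells. Of 22 S phase genes tested, 17 rose in blasts against B cells, and their sum was 2811 and 3224 RPM in blasts and 1231 and 1177 RPM in B cells. The share of all genes called higher in blasts was 12.3%. Markers of T, NK and myeloid cells (10 genes) summed to 10.0 and 22.5 RPM in blasts and 357 and 470.0 RPM in B cells. None of the 10 was at 0 in the B cell libraries, and Tyrobp and Itgam were at 0 in both blast libraries. Their part in the differences from B cells was not tested.

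Both maintenance genes fell in PB against blasts (Dnmt1 log2 -1.18 ± 0.21, adjusted p = 2.7e-04; Uhrf1 log2 -1.26 ± 0.23, adjusted p = 3.2e-04), but these calls depended on scale and on single libraries. The median of all genes tested was -0.64 in that comparison. The lines used summed to 650799 RPM in PB replicate 2, the lowest sum of any library, against up to 978020 RPM elsewhere. Under median-of-ratios scaling the changes were -0.53 for Dnmt1 and -0.60 for Uhrf1, and neither was called. Dnmt1 also lost its call without Blast replicate 2 (log2 -0.94) or PB replicate 1 (log2 -0.96), and Uhrf1 lost it without PB replicate 1 (log2 -0.98). The rise of Uhrf1 in PB against B cells was larger under that scaling (log2 2.19).

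In d2 PGCLC the maintenance genes were high. Uhrf1 had 92.6 and 86.7 RPM and Dnmt1 107 and 91.9 RPM. The 3 comparisons of d2 PGCLC share its 2 libraries. Against the reporter-positive E16.5 intestine, both were higher (Uhrf1 log2 1.91 ± 0.18, adjusted p = 1.4e-05; Dnmt1 log2 1.93 ± 0.17, adjusted p = 8.2e-06). Against P0 GFP+ precursors Uhrf1 differed by log2 0.89 ± 0.18, adjusted p = 0.0021, under the size asked for, and it was called under median-of-ratios (log2 1.13) and quantile scaling (log2 1.31). Dnmt1 did not pass the test against P0 GFP+ precursors (log2 0.32 ± 0.17, adjusted p = 0.13), and against prePB neither gene reached that size (Uhrf1 log2 0.50 ± 0.18, adjusted p = 0.037; Dnmt1 log2 0.44 ± 0.17, adjusted p = 0.045). With all libraries kept, the alternative runs gave log2 -0.06 to 0.50 for Uhrf1 and -0.12 to 0.44 for Dnmt1 against prePB. In RPM as deposited, both PGCLC libraries lay below both blast libraries and above both prePB libraries for Uhrf1. The S phase sum of d2 PGCLC was 3711 and 3584 RPM, above that of every other library.

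Dnmt3a (Entrez ID 13435; chromosome 12, 3801559 to 3914443, plus strand), which encodes the main new-methylation enzyme of neurons and blood cells, climbed through photoreceptor maturation. It had 98.9 and 86.9 RPM in P0 GFP+, 87.0 and 98.4 RPM in P4 GFP+CD73-, 141 and 116 RPM in P4 CD73+, 170.2 and 170.0 RPM in P6 CD73+ and 209.6 and 232 RPM in P10 CD73+ libraries. From P4 CD73+ to P10 CD73+ each group lay above the one before without overlap. Dnmt3a rose in P10 CD73+ against P0 GFP+ precursors (log2 1.24 ± 0.15, adjusted p = 2.8e-06). None of the single steps reached the size asked for, and P10 against P4 CD73+ precursors gave log2 0.78 ± 0.15, adjusted p = 7.9e-04. In the intestine it had 29.6 and 44.8 RPM at E16.5, 37.4 and 49.6 RPM at P3 and 35.7 and 27.6 RPM at P14, with overlapping neighbours at E16.5 and P3 and no call.

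In the B lineage Dnmt3a passed through a peak. It had 60.2 and 46.8 RPM in blasts, 17.1 and 11.7 RPM in prePB, 7.66 and 6.56 RPM in PB and 21.8 and 23.1 RPM in B cells, and no pair of these groups overlapped. It rose in blasts against B cells (log2 1.20 ± 0.28, adjusted p = 0.0023) and fell in prePB against blasts (log2 -1.84 ± 0.28, adjusted p = 3.7e-04). PB were lower again than prePB by a change that missed the size asked for (log2 -0.91 ± 0.28, adjusted p = 0.026), and which was called without prePB replicate 2 (log2 -1.16). Dnmt3a fell in PB against blasts (log2 -2.74 ± 0.28, adjusted p = 2.0e-06), the largest fall of the tested members in that comparison, and it kept this call under every alternative run. In PB against B cells it fell (log2 -1.54 ± 0.28, adjusted p = 2.4e-04), but not under median-of-ratios (log2 -0.82) or quantile scaling (log2 -0.65). Its level in d2 PGCLC, 40.2 and 47.1 RPM, was below P0 GFP+ precursors (log2 -1.07 ± 0.25, adjusted p = 0.0047) and above prePB (log2 1.55 ± 0.25, adjusted p = 5.1e-04). The difference from P0 was not called without PGCLC replicate 1 (log2 -0.96), without P0 replicate 1 (log2 -0.98) or under median-of-ratios (log2 -0.83) or quantile scaling (log2 -0.80), and the one from prePB was not called under quantile scaling (log2 0.99).

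Dnmt3b (Entrez ID 13436; chromosome 2, 153649411 to 153687730, plus strand), the new-methylation enzyme of the early embryo, was highest in d2 PGCLC. It had 76.9 and 96.0 RPM there, and no other library was above 32.3 RPM. It was higher in d2 PGCLC than in E16.5 intestine (log2 2.00 ± 0.28, adjusted p = 2.0e-04), P0 GFP+ precursors (log2 1.88 ± 0.28, adjusted p = 3.5e-04) and prePB (log2 3.16 ± 0.28, adjusted p = 1.1e-05), and no alternative run lost any of these calls. In the retina it had 23.8 and 21.4 RPM in P0 GFP+, 11.6 and 12.2 RPM in P4 GFP+CD73-, 5.19 and 7.67 RPM in P4 CD73+, 9.15 and 11.2 RPM in P6 CD73+ and 5.97 and 10.4 RPM in P10 CD73+ libraries. All 8 libraries from P4 on were below both P0 libraries, and Dnmt3b fell in P10 CD73+ against P0 GFP+ precursors (log2 -1.40 ± 0.33, adjusted p = 0.0021), where Dnmt3a rose. In the intestine Dnmt3b had 25.8 and 16.7 RPM at E16.5, 32.3 and 17.8 RPM at P3 and 12.3 and 12.4 RPM at P14. Its change at P14 against E16.5 was not called (log2 -0.71 ± 0.31, adjusted p = 0.078), except without E16.5 replicate 2 (log2 -1.01).

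The B lineage held little Dnmt3b, from 2.58 to 15.9 RPM per library, and none of its comparisons within the lineage was called with all libraries. PB replicate 2 was the lowest library, and without PB replicate 1 Dnmt3b was called as lower in PB than in blasts (log2 -1.77) and than in B cells (log2 -1.32). Dnmt3b is nearly identical in part to Dnmt3c, and the sources used here do not say how reads that fit both copies were counted. Dnmt3l (Entrez ID 54427; chromosome 10, 78042287 to 78063622, plus strand) was at 0 in 13 of the 26 libraries and reached at most 6 reads. Its highest values, 2.33 and 2.22 RPM, were those of d2 PGCLC, and it was below the level needed for testing in every fit.

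Tet1 had its highest mean in d2 PGCLC, and Tet2 and Tet3 both had theirs in P10 CD73+ precursors. Tet1 (Entrez ID 52463; chromosome 10, 62804570 to 62887469, minus strand), the TET enzyme of pluripotent and early germ cells, had 33.8 and 51.0 RPM in d2 PGCLC. It had 27.8 and 27.1 RPM in P0 GFP+, 33.6 and 36.6 RPM in P4 GFP+CD73-, 22.4 and 29.4 RPM in P4 CD73+, 25.3 and 26.7 RPM in P6 CD73+ and 18.2 and 18.3 RPM in P10 CD73+ libraries. In the 14 libraries of the intestine and the B lineage it was at most 3.33 RPM, and there it did not reach the level needed for testing. Tet1 was higher in d2 PGCLC than in E16.5 intestine, where it had 1.18 and 0.309 RPM (log2 4.65 ± 0.39, adjusted p = 6.1e-06), and than in prePB, where it had 1.53 and 0.600 RPM (log2 4.40 ± 0.39, adjusted p = 1.0e-05). With a pseudocount of 5 RPM the first of these was log2 3.02. Against P0 GFP+ precursors the difference did not pass the test (log2 0.58 ± 0.39, adjusted p = 0.22), except under quantile scaling (log2 1.14). Within the retina P10 CD73+ libraries were the lowest, with a change against P0 GFP+ precursors under the size asked for (log2 -0.56 ± 0.23, adjusted p = 0.044).

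Tet3 (Entrez ID 194388; chromosome 6, 83362373 to 83457208, minus strand), known for its role in the oocyte and in neurons, climbed with age in the retina. It had 73.1 and 65.7 RPM in P0 GFP+, 103 and 97.3 RPM in P4 GFP+CD73-, 111 and 111 RPM in P4 CD73+, 137 and 143 RPM in P6 CD73+ and 193 and 168 RPM in P10 CD73+ libraries, with no overlap between any neighbours. It rose in P10 CD73+ against P0 GFP+ precursors (log2 1.36 ± 0.14, adjusted p = 5.7e-07), with smaller changes in single steps, of which P4 GFP+CD73- against P0 GFP+ gave log2 0.52 ± 0.14, adjusted p = 0.014. Tet2 (Entrez ID 214133; chromosome 3, 133463677 to 133545136, minus strand), known from blood cells, was likewise highest in the P10 CD73+ libraries. It had 20.1 and 29.6 RPM in P0 GFP+, 22.6 and 17.4 RPM in P4 GFP+CD73-, 25.2 and 33.3 RPM in P4 CD73+, 37.4 and 36.2 RPM in P6 CD73+ and 47.3 and 48.8 RPM in P10 CD73+ libraries. Its change in P10 CD73+ against P0 GFP+ precursors was just under the size asked for (log2 0.95 ± 0.24, adjusted p = 0.0034), and it was called without P0 replicate 2 (log2 1.21) and under median-of-ratios (log2 1.04) and quantile scaling (log2 1.03). Genes of other retinal neurons and of Muller glia (10 genes) summed to 431 and 459.6 RPM in P10 CD73+ and 92.7 and 114 RPM in P0 GFP+ libraries, with Pou4f2 at 0 in both P10 libraries. The sum of these genes was 212 and 278 RPM in P4 GFP+CD73-, 300 and 394 RPM in P4 CD73+ and 593 and 568 RPM in P6 CD73+ libraries, so it was highest at P6. The part of such cells in the rise of Dnmt3a and Tet3 was not tested.

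In the intestine Tet3 had 28.1 and 34.0 RPM at E16.5, 31.8 and 39.0 RPM at P3 and 12.8 and 23.7 RPM at P14, lower at P14 in both libraries than in any earlier one. The changes at P14 were under the size asked for against P3 (log2 -0.97 ± 0.28, adjusted p = 0.027) and against E16.5 (log2 -0.79 ± 0.28, adjusted p = 0.026), and both were called without P14 replicate 2 (log2 -1.39 and -1.21). Tet2 had 11.9 and 7.10 RPM at E16.5, 7.20 and 8.41 RPM at P3 and 3.66 and 4.14 RPM at P14. It fell in P14 against E16.5 intestine (log2 -1.06 ± 0.40, adjusted p = 0.036), a call that was lost without E16.5 replicate 1 (log2 -0.73), P14 replicate 1 (log2 -0.99) or P14 replicate 2 (log2 -1.13), with a pseudocount of 5 RPM (log2 -0.69), with no filter on low values and in a fit of all 26 samples.

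Tet3 was low at the end of the B lineage. It had 14.2 and 13.0 RPM in blasts, 3.97 and 3.60 RPM in prePB, 3.69 and 1.41 RPM in PB and 22.8 and 27.5 RPM in B cells. B cells were above blasts and blasts above prePB without overlap, while prePB and PB overlapped. Tet3 fell in prePB against blasts (log2 -1.61 ± 0.37, adjusted p = 0.0077), in PB against blasts (log2 -2.12 ± 0.37, adjusted p = 2.5e-04) and in PB against B cells (log2 -2.96 ± 0.37, adjusted p = 9.1e-06). The first of these was not called with no filter on low values, and with a pseudocount of 5 RPM the second was log2 -1.32. Tet2 had 8.76 and 17.1 RPM in blasts, 7.18 and 15.9 RPM in prePB, 3.26 and 10.5 RPM in PB and 10.5 and 9.66 RPM in B cells, all overlapping. None of its B lineage comparisons was called, although leaving out PB replicate 2 made it lower in PB than in blasts (log2 -1.64) and than in B cells (log2 -1.38).

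In d2 PGCLC Tet1 was above Tet3, the reverse of the other 12 groups. Tet3 had 5.24 and 3.34 RPM there, and it was lower than in E16.5 intestine (log2 -2.62 ± 0.28, adjusted p = 3.4e-05) and in P0 GFP+ precursors (log2 -3.76 ± 0.28, adjusted p = 4.1e-06) while its difference from prePB did not pass the test (log2 0.12 ± 0.28, adjusted p = 0.74). The log2 ratio of Tet3 to Tet1, with 1 RPM added to each, was -2.48 and -3.58 in the d2 PGCLC libraries, and its mean was 1.25 to 4.24 in the other 12 groups. Tet1 was at most 3.33 RPM in the intestine and the B lineage, so the added 1 RPM weighs on the ratios there. The log2 ratio of Tet3 to Tet2 was 0.47 and -1.08 in d2 PGCLC, -0.72 and -1.88 in prePB and 0.14 and -2.26 in PB libraries. Its mean was positive in all groups but these. Tet2 had 3.50 and 8.16 RPM in d2 PGCLC and was lower than in P0 GFP+ precursors (log2 -1.99 ± 0.48, adjusted p = 0.0053), a call lost without PGCLC replicate 1 (log2 -1.47). Its difference from prePB was not called (log2 -0.87 ± 0.48, adjusted p = 0.14), but it was without prePB replicate 1 (log2 -1.40) and under median-of-ratios (log2 -1.39) and quantile scaling (log2 -1.53).

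**Figure D3:**
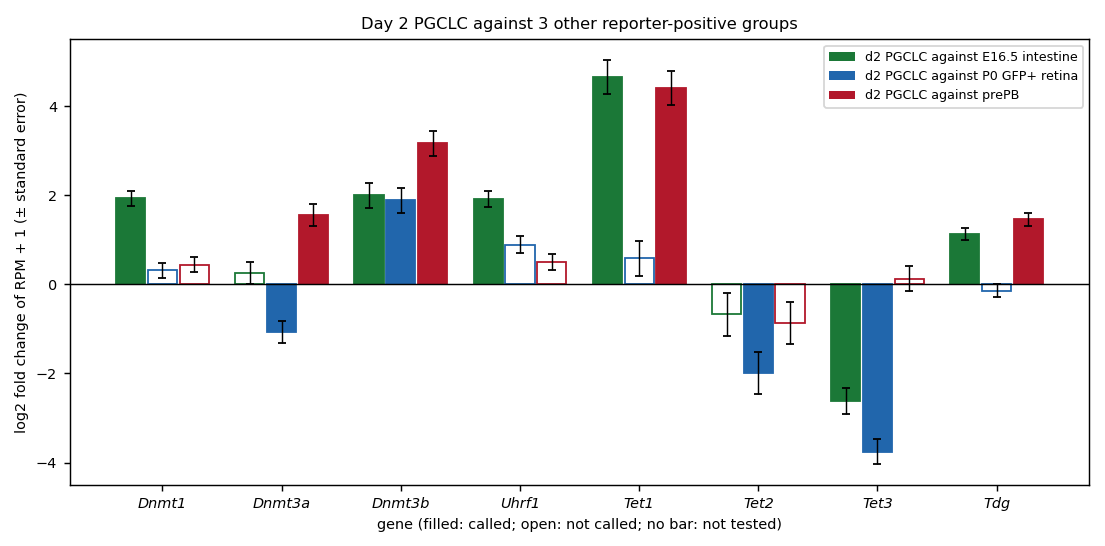
Log2 fold change with its standard error, on log2(RPM + 1), of each tested gene in d2 PGCLC against E16.5 intestine, P0 GFP+ precursors and prePB. Called changes are filled and others are open. Dnmt3b is higher in d2 PGCLC in all 3 comparisons, Tet1 is higher than in intestine and prePB, and Tet3 is lower than in intestine and retina.

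Tdg (Entrez ID 21665; chromosome 10, 82629814 to 82650799, plus strand), which encodes the glycosylase that removes oxidised methylcytosine, had its highest means in P0 GFP+ precursors and d2 PGCLC. It had 203 and 176 RPM in d2 PGCLC, 125 and 128 RPM in P10 CD73+ and 209 and 209 RPM in P0 GFP+ libraries. P4 GFP+CD73- libraries, with 194 and 182 RPM, overlapped those of d2 PGCLC. P4 CD73+ libraries had 143 and 148 RPM and P6 CD73+ libraries 154 and 128 RPM. Tdg was above E16.5 intestine, with 83.7 and 88.0 RPM (log2 1.13 ± 0.14, adjusted p = 9.2e-05), and above prePB (log2 1.46 ± 0.14, adjusted p = 1.9e-05) in d2 PGCLC. Median-of-ratios scaling took both calls away (log2 0.79 and 0.89). In blasts it had 97.7 and 105 RPM against 31.9 and 27.2 RPM in B cells, and it rose in blasts against B cells (log2 1.75 ± 0.19, adjusted p = 3.9e-06). PrePB had 62.0 and 74.8 RPM and PB 45.8 and 48.4 RPM, and Tdg fell in PB against blasts (log2 -1.09 ± 0.19, adjusted p = 2.3e-04), though not under median-of-ratios (log2 -0.43) or quantile scaling (log2 -0.49). PB were above B cells by less than the size asked for (log2 0.66 ± 0.19, adjusted p = 0.0067), and by a called change under both scalings (log2 1.42 and 1.48). The change in P10 CD73+ against P0 GFP+ precursors was log2 -0.72 ± 0.13, adjusted p = 2.8e-04, and in the intestine all 6 libraries lay between 69.3 and 88.0 RPM. Glt8d2, which lies on the opposite strand over the last bases of Tdg, was at most 1.86 RPM in any library. The annotation also lists processed copies of Tdg, Dnmt3a and Dnmt3l, so the values of these genes are uncertain to the extent that reads were shared. Tet1 and Tet2 also had values that were not whole reads, such as 137.5 reads of Tet1 in d2 PGCLC replicate 2. The reason for these is not given.

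Counted by comparison, the count of tested members called was set beside the share of all genes. In blasts against B cells 3 of 7 tested members rose and 0 fell, with 34.1% of all 9871 genes called (12.3% higher and 21.8% lower). In prePB against blasts 0 rose and 2 fell of 7, with 10.3% called (4.43% higher and 5.83% lower). In PB against prePB none of 7 was called by limma, with 3 at an unadjusted p under 0.05, and 13% of all genes were called (1.26% higher and 11.7% lower). In PB against blasts 5 of 7 fell (37.6% called, 6.66% higher and 30.9% lower), and in PB against B cells 1 rose and 2 fell of 7 (47.7% called, 7.2% higher and 40.5% lower).

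**Figure D4:**
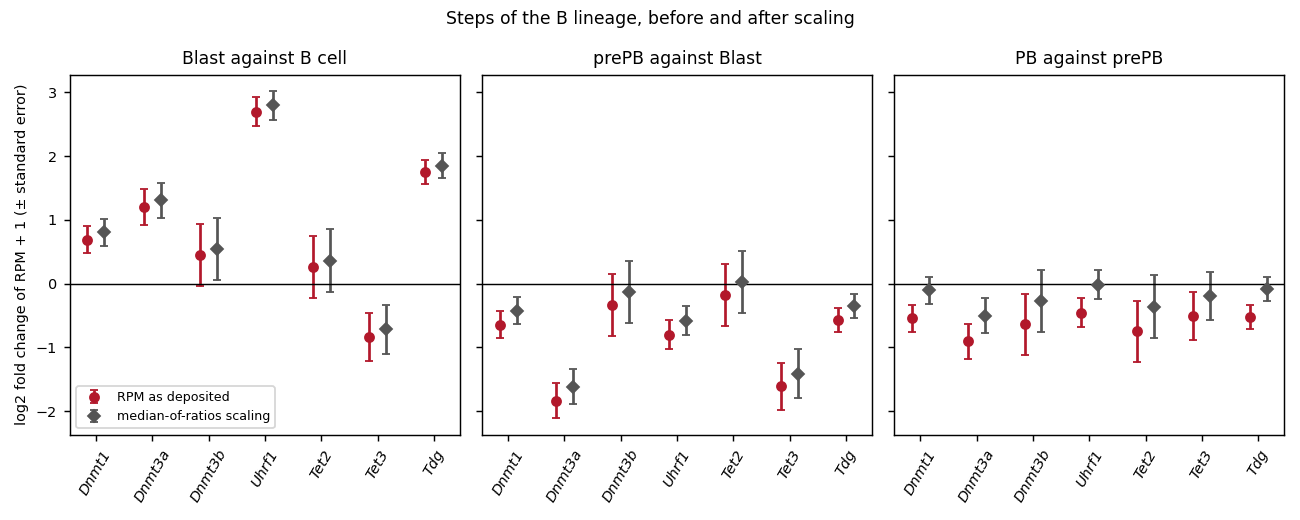
Log2 fold change with its standard error, on log2(RPM + 1), of the 7 tested genes in blasts against B cells, prePB against blasts and PB against prePB. Values are shown with RPM as deposited and after median-of-ratios scaling. Uhrf1, Tdg and Dnmt3a are higher in blasts than in B cells, and Dnmt3a and Tet3 are lower in prePB than in blasts.

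Calls in the B lineage depended on scale as a whole. As deposited, 17.7% of the calls in PB against blasts, 15.1% in PB against B cells and 9.68% in PB against prePB were higher. Under median-of-ratios scaling these shares were 54.4, 47.9 and 50.4%. The medians of all genes tested were -0.64, -0.77 and -0.39 as deposited. Relative to these, the falls of Dnmt3a and Tet3 in PB against blasts were larger than the general shift, and they were called as deposited and under median-of-ratios and quantile scaling. Those of Dnmt1, Uhrf1 and Tdg were called as deposited and under neither of these scalings.

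In the intestine Dnmt1 and Uhrf1 rose and none fell at P3 against E16.5 (2 of 7 tested, with 20.8% of all 10481 genes called, 12.6% higher and 8.2% lower). At P14 against E16.5 the same 2 rose and Tet2 fell (3 of 7, 22.3% called, 11.8% higher and 10.4% lower). At P14 against P3 limma called none of 7, with 4 at an unadjusted p under 0.05, and 4.4% of all genes were called (1.99% higher and 2.4% lower). In the retina Uhrf1 was the one call among 8 tested members in P4 GFP+CD73- against P0 GFP+ precursors (11% of all 11704 genes called, 5.24% higher and 5.77% lower), in P6 against P4 CD73+ precursors (2.7% called, 1.56% higher and 1.14% lower) and in P10 against P4 CD73+ precursors (17.2% called, 6.33% higher and 10.8% lower). In the last of these Dnmt1, Dnmt3a, Tet2 and Tet3 passed the adjusted p with changes under the size asked for, as did Tet3 in the first. None of 8 was called by limma in P4 CD73+ against P4 GFP+CD73- precursors, with 4 at an unadjusted p under 0.05 (5.86% called, 3.43% higher and 2.43% lower), or in P10 against P6 CD73+ precursors, with 5 at an unadjusted p under 0.05 (11% called, 3.33% higher and 7.62% lower). In a fit of all 26 samples Uhrf1 was called in P10 against P6 CD73+ precursors. In P10 CD73+ against P0 GFP+ precursors 2 rose and 3 fell of 8, with 35.9% of all genes called (15.8% higher and 20.1% lower). In d2 PGCLC 6 of 8 differed from E16.5 intestine (48.8% of all 12651 genes called, 27.9% higher and 20.8% lower), 4 of 8 from P0 GFP+ precursors (44.8% called, 15.2% higher and 29.6% lower) and 4 of 8 from prePB (45.3% called, 33.7% higher and 11.6% lower).

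The median change of all genes tested was -0.18 in blasts against B cells and -0.24 in prePB against blasts. In the comparisons of d2 PGCLC it was 0.23 against E16.5 intestine, -0.30 against P0 GFP+ precursors and 0.55 against prePB. In the single tissues it was at most 0.13 in size.

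The 2 maturing tissues were compared directly in a fit of all 26 samples, as the change in the intestine minus the change in the retina. For P14 against E16.5 intestine minus P10 CD73+ against P0 GFP+ precursors, 6 of 8 tested members differed, with 41.8% of all 14131 genes called (23.3% higher and 18.4% lower). The difference was 6.02 ± 0.42, adjusted p = 1.1e-10 for Uhrf1 and 2.62 ± 0.27, adjusted p = 3.8e-08 for Dnmt1, both higher at the later age in intestine and lower at the later age in retina. It was -1.45 ± 0.30, adjusted p = 4.2e-04 for Dnmt3a, -2.15 ± 0.39, adjusted p = 8.1e-05 for Tet3 and -2.01 ± 0.61, adjusted p = 0.0086 for Tet2, whose fitted changes were negative in intestine and positive in retina. That of Tet2 was not called without E16.5 replicate 1 (log2 -1.67). Tet1 also passed (log2 1.33 ± 0.54, adjusted p = 0.047), but at 0.309 to 3.33 RPM in the intestine. It lost its call with no filter on low values, with a pseudocount of 0.5 RPM (log2 1.58) or 5 RPM (log2 0.78), under median-of-ratios (log2 1.23) and quantile scaling (log2 0.97), and when any 1 of 8 libraries was left out, among them E16.5 replicate 2 (log2 0.97) and P14 replicate 2 (log2 0.75). The difference of Dnmt3b did not pass the test (log2 0.69 ± 0.60, adjusted p = 0.36).

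Between groups sorted by the same gate at both ages, P14 against P3 intestine minus P10 against P4 CD73+ precursors, 3 of 8 tested members differed, with 15.5% of all genes called (8.74% higher and 6.78% lower). The difference was 2.97 ± 0.42, adjusted p = 2.8e-05 for Uhrf1, -1.66 ± 0.39, adjusted p = 0.0041 for Tet3 and -1.23 ± 0.30, adjusted p = 0.0063 for Dnmt3a. With a pseudocount of 5 RPM that of Uhrf1 was 1.67. Tet2 had log2 -1.55 ± 0.61, adjusted p = 0.08, and was called under quantile scaling (log2 -1.73).

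**Figure D5:**
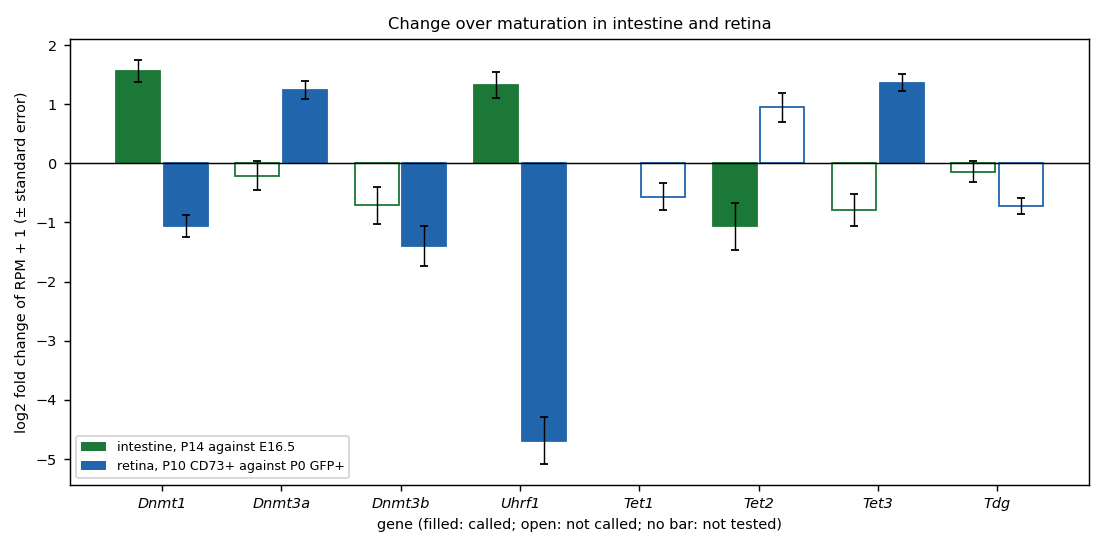
Log2 fold change with its standard error, on log2(RPM + 1), of each gene in P14 against E16.5 intestine (green) and in P10 CD73+ against P0 GFP+ precursors (blue). Called changes are filled and others are open. Uhrf1 and Dnmt1 are above 0 in intestine and below 0 in retina, and Dnmt3a, Tet2 and Tet3 are above 0 in retina alone.

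Partners of the maintenance enzymes were described from a list of 11 genes. In P3 against E16.5 intestine 12.6% of all genes were called higher, and the median over all genes tested was log2 0.11. Of the 9 partners tested there (median log2 0.99), 4 rose. They were Cdca7 (log2 2.34 ± 0.28) and Hells (log2 1.69 ± 0.26), which form a remodelling complex needed for methylation of packed DNA, Lig1 (log2 1.91 ± 0.19), the replication ligase that UHRF1 binds, and Pcna (log2 1.16 ± 0.15), the replication clamp. In P10 CD73+ against P0 GFP+ precursors 5 of 9 fell (median log2 -1.35, against -0.10), among them Lig1 (log2 -2.72 ± 0.20), Cdca7 (log2 -2.44 ± 0.52), Hells (log2 -2.43 ± 0.42) and Trim28 (log2 -1.54 ± 0.16). The share of all genes called lower there was 20.1%. In blasts against B cells 4 of 9 rose, with Hells at log2 2.04 ± 0.24, where 12.3% of all genes were called higher (median log2 0.45, against -0.18). In PB against blasts 6 of 9 fell, with Cdca7 at log2 -3.23 ± 0.36, where 30.9% of all genes were called lower (median log2 -1.19, against -0.64). In d2 PGCLC against E16.5 intestine 9 of 10 were higher, where 27.9% of all genes were. The largest was Dppa3 (log2 3.83 ± 0.35), also called stella, a germ cell protein that keeps UHRF1 off chromatin in mouse oocytes. The line also carries a stella-ECFP reporter.

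The next list held 20 base excision and demethylation partners. In blasts against B cells 4 of 15 tested rose and 1 fell (median log2 0.39, against -0.18). Of all genes there, 12.3% were called higher and 21.8% lower. In P10 CD73+ against P0 GFP+ precursors 3 of 16 rose and 6 fell, where 15.8% of all genes were called higher and 20.1% lower. Among those that fell were Neil3, a glycosylase of cycling cells, with 0 and 0.336 RPM in P10 CD73+ libraries (at most 1 read) and 114 and 86.9 RPM in P0 GFP+ libraries, and Gadd45g (log2 -4.40 ± 0.19), a stress and neurogenesis gene. In P3 against E16.5 intestine 4 of 15 rose, among them Neil3 (log2 2.74 ± 0.33) and Gadd45g (log2 2.01 ± 0.29). Of all genes there, 12.6% were called higher. In d2 PGCLC 7 of 17 were higher and 2 lower than in E16.5 intestine, where 27.9% of all genes were called higher and 20.8% lower.

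Of 13 TET partners and cofactor enzymes, 2 rose and 3 fell of 12 tested in P10 CD73+ against P0 GFP+ precursors. Of all genes in that comparison, 15.8% were called higher and 20.1% lower. Idh2, which encodes one of several enzymes that make alpha-ketoglutarate, in its case in mitochondria, fell (log2 -2.06 ± 0.16). Cxxc5 fell as well (log2 -1.84 ± 0.14) and Cxxc4 rose (log2 1.04 ± 0.15), both of which encode CpG-binding partners of TET2. In blasts against B cells 2 of 11 rose and 3 fell, where 12.3% of all genes were called higher and 21.8% lower. Among those that fell was Cxxc5, with 0.254 and 0.289 RPM in blasts (1 read in each library) and 48.7 and 39.5 RPM in B cells. In d2 PGCLC against P0 GFP+ precursors 2 of 12 were higher and 3 lower, with Cxxc4 at log2 -4.28 ± 0.31. Of all genes there, 15.2% were called higher and 29.6% lower. Against prePB 6 of 12 were higher, with Cxxc5 at log2 3.81 ± 0.23, where 33.7% of all genes were called higher. In P14 against E16.5 intestine Idh1 (log2 -2.43 ± 0.16) and Cxxc5 (log2 -1.03 ± 0.24) fell among 11. Of all genes there, 10.4% were called lower.

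Of 10 readers of methylated DNA, 4 fell in PB against B cells, a share near that of all genes called lower there (40.5%). In P10 CD73+ against P0 GFP+ precursors Zbtb4 (log2 2.79 ± 0.27) was the largest of 2 that rose, and 1 of 10 fell. Of all genes there, 15.8% were called higher and 20.1% lower. In blasts against B cells Zbtb4 fell (log2 -3.28 ± 0.30) and was the one call among 10. Of all genes there, 34.1% were called. In d2 PGCLC against P0 GFP+ precursors 0 of 10 were higher and 5 lower, where 15.2% of all genes were called higher and 29.6% lower. Enzymes of S-adenosylmethionine, the methyl donor, and of one-carbon metabolism (19 genes) rose in blasts against B cells in 7 of 15 tested, with Shmt1 at log2 3.55 ± 0.24, where 12.3% of all genes were called higher. They fell in PB against blasts in 10 of 15 (median log2 -1.20, against -0.64), where 30.9% of all genes were called lower as deposited and the split of calls depended on scale as given above. In P10 CD73+ against P0 GFP+ precursors 1 of 14 rose and 5 fell, where 15.8% of all genes were called higher and 20.1% lower. Among 13 enzymes and subunits of histone methylation and demethylation, Ezh2, the H3K27 methyltransferase, rose in blasts against B cells (log2 1.41 ± 0.17) and in P3 against E16.5 intestine (log2 1.12 ± 0.20) and fell in P10 CD73+ against P0 GFP+ precursors (log2 -1.83 ± 0.22). The list as a whole had 2 rises and 2 falls, 3 rises and 0 falls, and 1 rise and 3 falls of 13 in those comparisons. The shares of all genes called higher and lower in them were 12.3 and 21.8%, 12.6 and 8.2%, and 15.8 and 20.1%.

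Germline genes that promoter methylation is known to silence (20 genes) were mostly too low to be tested. In the fit of the reporter-positive groups 6 of 20 were tested, of which 2 were higher and 2 lower in d2 PGCLC than in E16.5 intestine. Of all genes there, 27.9% were called higher and 20.8% lower. Zfp42, a gene of pluripotent cells also known as Rex1, had 8.45 and 15.0 RPM in d2 PGCLC and was listed at 0 in both P0 GFP+ and both prePB libraries. In P14 against E16.5 intestine Sycp3, a meiotic chromosome protein, fell (log2 -1.39 ± 0.23) as 1 of 2 tested. In P10 CD73+ against P0 GFP+ precursors Ddx4, a germ cell helicase, fell (log2 -1.37 ± 0.43) as 1 of 3. Of all genes, 10.4% were called lower in the intestinal comparison and 20.1% in the retinal one.

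As a description over the 13 group means of log2(RPM + 1), with no test and with lineage shared by many of the points, the genes most like Uhrf1 among 14131 were Lrr1 (r = 0.980), Ccnb2 (r = 0.979) and Mcm10 (r = 0.977). Those most like Dnmt1 were Cdkn2aipnl (r = 0.888), Rnaseh1 (r = 0.862) and Timeless (r = 0.853). Dnmt3a was followed most closely by 2610301G19Rik (r = 0.976), Mpdu1 (r = 0.968) and Kif2a (r = 0.963), and Dnmt3b by 2700060E02Rik (r = 0.935), Spred2 (r = 0.925) and Sae1 (r = 0.919). Among those for Tet1 were Diablo (r = 0.985) and Ttbk2 (r = 0.982). They were, for Tet2, Secisbp2l (r = 0.964), Magee1 (r = 0.959) and Zcchc17 (r = 0.958), and, for Tet3, Atrn (r = 0.984), Tbck (r = 0.975) and Zfp784 (r = 0.972). Among those for Tdg were Cd320 (r = 0.966) and Gm19597 (r = 0.949). Within the 9 genes the pairs with the highest r were Dnmt3a with Tet3 (r = 0.889) and Tet1 with Tdg (r = 0.846). Dnmt1 with Uhrf1 gave r = 0.539. The share of genes with a lower r was 97.01% for Dnmt3a with Tet3, 89.15% for Tet1 with Tdg and 95.45% for Dnmt1 with Uhrf1, counted for the first gene of each pair. Uhrf1 ran against Tet2 (r = -0.776) and Tet3 (r = -0.764), with 6.70 and 7.82% of genes at a lower r to Uhrf1. Of the 24 neighbours the rule gave, 5 were also among the 3 closest by Spearman's rho.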

How the data were processed

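Gene expression was measured by 3' RNA-seq in 26 libraries (13 groups of 2). The table the authors deposited gives, per its header, an expression signal in RPM. Bowtie 1.0.1, TopHat 1.4.1, cutadapt 1.11, Cufflinks 2.2.0 and the build mm10 are named in the submitters' processing notes. What each did, and the counting of reads that fit several genes, are not given in the sources used here. Of 26310 lines, 1164 lacked values (92 spike-ins and 1072 gene lines, 1 of them a gene of the lists) and were left out. Between 82.9 and 91.3% of the low values of a library were whole reads within 0.02, so the signal was not treated as counts; the size of 1 read gave the depth.

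Values were tested as deposited, as log2(RPM + 1), for genes that reached 5 RPM in 2 or more samples of a fit, with limma 3.58.1 (trended prior variance) in R 4.3.3. There was 1 fit for each of the B lineage (8 samples), intestine (6), retina (10) and the reporter-positive groups (8: d2 PGCLC, E16.5 intestine, P0 GFP+ precursors and prePB), and 1 of all 26 samples for the differences between tissues, giving 19 comparisons. P-values were adjusted by Benjamini-Hochberg over all genes of a fit. The steps were checked on simulated data. Gene positions and promoter windows came from RefSeq, GRCm38.p6, in which all 9 genes were matched, and neighbouring genes and exons from GENCODE vM21. Other steps used Python 3.11.15, NumPy 2.4.6, pandas 2.3.3, SciPy 1.17.1 and matplotlib 3.10.9.

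The 9 members, the 9 pathway lists (144 genes) and the marker lists were chosen with earlier results of these data known. Named were all members, up to 4 called genes of a pathway list per comparison by size of change, and the 3 genes closest to each member; some genes that met this rule are not reported here. Alternatives were other pseudocounts, filters, scalings, priors and fits, a replicate block and leaving out each library. The labels do not tie replicate numbers to shared animals or cultures, and samples were not treated as paired.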

Additional observations from a re-analysis of the deposited data

Results flagged for a closer look

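The change in the intestine minus the change in the retina, in a limma fit of all 26 samples on log2(RPM + 1), passed the test for 9 member results, each because 2 tissues differed in the same kind of contrast. For P14 against E16.5 intestine minus P10 CD73+ against P0 GFP+ precursors, the difference was 6.02 for Uhrf1, 2.62 for Dnmt1, 1.33 for Tet1, -1.45 for Dnmt3a, -2.01 for Tet2 and -2.15 for Tet3. Tet1 was at 0.309 to 3.33 RPM in the intestine, too low to be tested there alone, and its difference kept its call in 4 of 12 fits with 1 library left out and under 3 of 8 other settings. For P14 against P3 intestine minus P10 against P4 CD73+ precursors, it was 2.97 for Uhrf1, -1.23 for Dnmt3a and -1.66 for Tet3. The first contrast joins groups sorted by different gates in each tissue, and age and gate cannot be told apart in it. The second keeps the gate within each tissue.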

How the results depend on the processing

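Of 144 tested member results, 49 were called and 34 of these kept their call under every alternative run. Over 2547 alternative values, 47 lost a call, 22 gained one and 0 reversed a called direction. The labels give no pairing by replicate number, and most groups of a lineage did not deviate together by number (correlations of same-numbered deviations -0.038 to 0.0045 in intestine, -0.033 to 0.24 in retina, highest between the 2 P4 groups, and -0.014 to 0.16 in the B lineage, highest between blasts and prePB). The labels do not say whether those sorts shared animals or cultures, and the replicate block changed none of the 144 member calls, with 3406 genes called in blasts against B cells (3367 without it), 3734 in PB against blasts (3708), 2329 in P14 against E16.5 intestine (2335) and 4219 in P10 CD73+ against P0 GFP+ precursors (4206).

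Counts over all genes moved by over 1.5 times in a few comparisons, and the cause was not tested. With a pseudocount of 5 RPM, prePB against blasts had 655 calls (1012 in the test reported), PB against prePB 655 (1281) and P10 against P6 CD73+ precursors 817 (1282). With no filter on low values, prePB against blasts had 664, P14 against P3 intestine 143 (461) and P6 against P4 CD73+ precursors 111 (316). PB against prePB had 809 under median-of-ratios and 688 under quantile scaling, and PB against blasts 2389 and 2258. A constant prior gave 249 in P14 against P3 intestine. Leaving out 1 library gave 269 to 461 there (fewest without P3 replicate 1, and 283 and 278 without P3 replicate 2 and P14 replicate 1), 809 to 1289 in P4 GFP+CD73- against P0 GFP+ precursors (fewest without P4 GFP+CD73- replicate 1), 443 to 713 in P4 CD73+ against P4 GFP+CD73- precursors (fewest without P4 CD73+ replicate 1), 115 to 362 in P6 against P4 CD73+ precursors (115, 139 and 143 without P6 replicate 2, P6 replicate 1 and P4 CD73+ replicate 2) and 776 to 1296 in P10 against P6 CD73+ precursors (fewest without P10 replicate 2). Of the 24 most similar genes, 5 remained by Spearman's rho and 14 with a pseudocount of 5 RPM.

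The share of calls that were higher was 64.1% under median-of-ratios scaling in prePB against blasts (43.2% as deposited), 54.5% in d2 PGCLC against prePB (74.4%), 45.4% against E16.5 intestine (57.3%) and 41.3% in P10 against P6 CD73+ precursors (30.4%). Under quantile scaling it was 51.0% in blasts against B cells (36.2%), 49.6% in P3 against E16.5 intestine (60.6%), 51.9% in d2 PGCLC against P0 GFP+ precursors (34.0%) and 48.3% in P10 against P4 CD73+ precursors (36.9%). There were 2 libraries a group, of 1.72 to 6.04 M reads. Tet1 in the fits of the intestine and of the B lineage, and Dnmt3l in every fit, did not reach the level needed for testing. Their changes in those fits were therefore not tested.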
